A study of Homo sapiens with 8 samples.

Results

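YAP1, its paralogue WWTR1 (the gene for TAZ), the TEAD factors TEAD1, TEAD3 and TEAD4 and 5 of their known targets, CTGF, CYR61, ANKRD1, AMOTL2 and LATS2, were followed through acquired gefitinib resistance in a pair of human lung cancer cell lines. The 10 genes were looked up by symbol among the 48405 rows of 2 expression tables, taking the row with the highest mean over 8 libraries where several rows carried a symbol. All 10 were found. YAP1 had 2 rows and TEAD1 had 4, the others 1 each, and the AMOTL2 row also carried the name of a ribosomal protein pseudogene, RPL39P5, so its level is uncertain. The hg19 intervals given below are the loci listed for the rows and need not be the span of the gene. Those of WWTR1, TEAD1 and CTGF also held rows of other names.

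HCC4006 and HCC827 are non-small cell lung cancer (NSCLC) lines driven by mutant EGFR, the receptor that gefitinib inhibits. Each line was sampled as a passage control kept in DMSO, the drug's solvent, and as a resistant culture that could be grown routinely in 3 µM gefitinib. The growth protocol also names BIBW2992 (afatinib), another EGFR inhibitor, for resistant cells, but the labels of these samples name gefitinib. All cultures shared RPMI-1640 medium with fetal bovine serum, and the lines' identity was checked by fingerprinting, per the labels. Each of the 4 groups had 2 libraries of polyadenylated RNA, called A and B here after the letters in the deposited tables, and nothing in the labels says that they came from separate cultures, so p-values measure only the spread between these libraries, which may be technical. Resistance and the presence of the drug cannot be told apart in this design, and each resistant group stands for 1 line.

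YAP and TAZ are transcriptional co-activators without a DNA-binding domain of their own. They reach DNA mainly through the TEAD factors, and the Hippo kinases LATS1 and LATS2 phosphorylate them and keep them out of the nucleus. CTGF and CYR61 encode secreted matricellular proteins of the CCN family, and ANKRD1 encodes an ankyrin-repeat protein. AMOTL2 (an angiomotin that holds YAP at junctions) and LATS2 are targets that also restrain YAP. Transcript levels do not report the location or phosphorylation of the YAP and TAZ proteins.

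The TEAD factors bind the core letters GGAATG (or CATTCC on the other strand). RefSeq promoter windows (GRCh38.p14, 250 bases before to 50 after the start) were matched for 7 of the 10 genes. TEAD1, TEAD4 and CYR61 had no entry. The 250 bases before the start of CTGF (chr6:131951373-131951622, minus strand) and ANKRD1 (chr10:90921088-90921337, minus strand) are shown because these genes held the most matches. Letters in capitals mark GGAATG.
CTGF: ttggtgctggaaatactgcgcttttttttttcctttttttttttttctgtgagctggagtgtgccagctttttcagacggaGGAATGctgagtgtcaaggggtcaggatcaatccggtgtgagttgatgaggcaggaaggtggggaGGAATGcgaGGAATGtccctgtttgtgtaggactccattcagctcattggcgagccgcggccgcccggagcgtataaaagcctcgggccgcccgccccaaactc
ANKRD1: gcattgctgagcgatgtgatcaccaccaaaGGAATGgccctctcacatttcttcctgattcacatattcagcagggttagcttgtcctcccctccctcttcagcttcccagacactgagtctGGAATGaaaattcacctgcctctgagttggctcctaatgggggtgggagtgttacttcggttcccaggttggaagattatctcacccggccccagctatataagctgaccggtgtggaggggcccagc
CTGF held 3 matches, whose first bases lay 169, 104 and 95 bases before the start, and ANKRD1 held 2, at 220 and 128 bases before it. Of 35116 promoter windows of the same length, 1.37% held at least 2 such matches and 0.128% held at least 3. YAP1 held 1 match, 162 bases before its start, and LATS2 held 1, 10 bases after it, where 14.0% of all windows held at least 1. AMOTL2 had a match in 1 of its 2 windows, and WWTR1 and TEAD3 had none. The letters TGANTCA, a loose form of the AP-1 motif in which N is any base, were searched on both strands. They occurred once in the ANKRD1 window, as TGATTCA, and in 7.71% of all windows. This match overlapped none of the TEAD matches of ANKRD1. A match describes the letters only.

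Levels below are FPKM as deposited, fragment counts scaled for transcript length and for the library. The median of rows above 0 was 53.6 to 59.0 FPKM per library, so a level of a few FPKM is low on this scale. A change is the mean log2(FPKM + 0.5) of the resistant libraries less that of the controls, tested with limma on the 4 libraries of a line, with Benjamini-Hochberg adjustment over all rows tested and a gene called at an adjusted p below 0.05. None of the 10 genes passed this test in either line. In HCC4006, 0 of 10 were called where 9.36% of 19881 rows were called, and 1 of 10 (AMOTL2) had an unadjusted limma p below 0.05, as did 23.0% of rows. In HCC827, 0 of 10 were called against 6.8% of 19324 rows, and 1 of 10 (YAP1) was below 0.05 unadjusted, as were 18.2% of rows. Of the called rows, 1361 of 1860 in HCC4006 and 1155 of 1314 in HCC827 were listed at 0 in some library. All 10 genes were above 0 in every library. Of such rows, 3.03% were called in HCC4006 and 0.999% in HCC827, and 0.534% and 0.119% when they were fitted alone. An exact permutation test of 2 against 2 libraries cannot give a two-sided p below 0.333 and was not used.

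The 2 groups of a line did not overlap for 7 of the 10 genes in HCC4006, where this held for 53.1% of rows. YAP1, WWTR1, TEAD1 and CYR61 had both resistant libraries above both DMSO libraries (26.6% of rows), and TEAD3, AMOTL2 and LATS2 had both below (26.5%). In HCC827 the groups did not overlap for 4 of 10 genes, against 48.9% of rows. YAP1, TEAD4, ANKRD1 and AMOTL2 had both resistant libraries below both DMSO libraries (24.7% of rows), and no gene had both above (24.3%). The median change of the 10 genes was -0.01 in HCC4006 and -0.34 in HCC827, beside -0.01 and -0.04 for all rows tested.

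**Figure D1:**
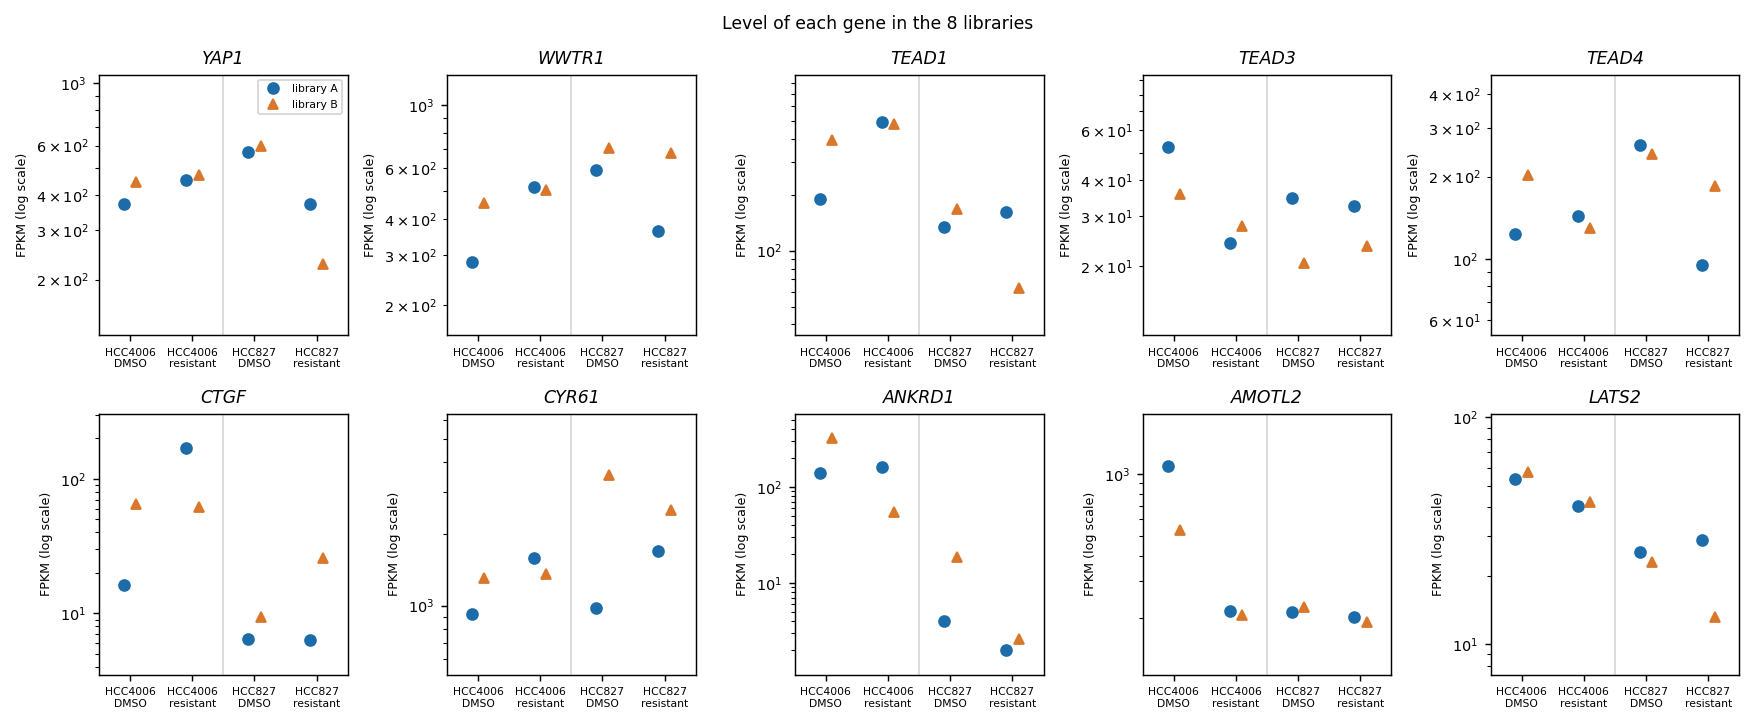
FPKM (log axis) of the 10 genes in the DMSO and resistant libraries of HCC4006 (left of the grey line) and HCC827 (right); circles are library A and triangles library B. CYR61 lies highest in every group, and in HCC4006 the resistant AMOTL2 values of 214 and 206 sit below the DMSO values of 1089 and 531.

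The co-activators had changes of opposite sign in the lines, and none was called. YAP1 (hg19 chr11:101981191-102104154) stood at 371 and 446 FPKM in the DMSO libraries of HCC4006 and at 452 and 472 in the resistant ones. In HCC827 it stood at 567 and 597 in DMSO and at 373 and 228 in the resistant libraries. Resistant HCC827 was thus the group with the lowest mean for YAP1 in this row, and both of its libraries lay below both controls of that line. Its value of 373 lay above the HCC4006 DMSO value of 371, and the lines may have been scaled separately. The log2 change was 0.18 (SE 0.20, 95% interval -0.39 to 0.75, limma adjusted p = 0.632) in HCC4006 and -0.99 (SE 0.35, interval -1.92 to -0.07, limma adjusted p = 0.246) in HCC827. In the second YAP1 row the groups overlapped in both lines. That row stood at 40.2 and 211 FPKM in HCC4006 DMSO and at 154 and 182 in resistant HCC4006. In HCC827 it stood at 83.8 and 183 in DMSO and at 139 and 61.9 in the resistant libraries.

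WWTR1 (hg19 chr3:149235021-149454501) stood at 283 and 454 FPKM in HCC4006 DMSO and at 516 and 503 in resistant HCC4006. It stood at 595 and 709 FPKM in HCC827 DMSO and at 364 and 680 in resistant HCC827, where the groups overlapped. The log2 change was 0.51 (SE 0.30, limma adjusted p = 0.428) in HCC4006 and -0.38 (SE 0.40, limma adjusted p = 0.652) in HCC827. The WWTR1 change in HCC4006 was 0.85 without library B of DMSO and 0.17 without library A of DMSO. YAP1 and WWTR1 were of like abundance in 7 libraries, with a YAP1 to WWTR1 ratio of FPKM between 0.84 and 1.31. Library B of resistant HCC827 stood apart at 0.34, with low YAP1 and high WWTR1.

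The TEAD genes differed between the lines in which one led. TEAD1 (hg19 chr11:12695968-12966298) stood at 191 and 397 FPKM in HCC4006 DMSO and at 494 and 484 in resistant HCC4006, a log2 change of 0.83 (SE 0.42, limma adjusted p = 0.359). Both resistant libraries were above both controls, but the controls themselves lay 2.08-fold apart. The TEAD1 change in HCC4006 was 1.36 without library B of DMSO and 0.30 without library A of DMSO. In HCC827, TEAD1 stood at 135 and 167 in DMSO and at 161 and 63.0 in the resistant libraries, and the groups overlapped (log2 change -0.57, SE 0.53, limma adjusted p = 0.601).

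TEAD4 stood at 124 and 203 FPKM in HCC4006 DMSO and at 144 and 130.1 in resistant HCC4006, with overlapping groups. It stood at 262 and 243 in HCC827 DMSO and at 95.2 and 184 in resistant HCC827, both below both controls (log2 change -0.92, SE 0.41, limma adjusted p = 0.342). TEAD3 was the least abundant of the 3, between 20.6 and 52.2 FPKM over the 8 libraries. It was lower in both resistant HCC4006 libraries (24.0 and 27.7) than in both controls (52.2 and 35.7), with a log2 change of -0.73 (SE 0.29, limma adjusted p = 0.262). In HCC827 its change was 0.05 (SE 0.42, 95% interval -1.06 to 1.16).

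Within each library, the share of each gene in the summed FPKM of TEAD1, TEAD3 and TEAD4 does not depend on a linear scaling of the library. TEAD1 made up 52.0% and 62.4% of this sum in HCC4006 DMSO and 74.6% and 75.4% in resistant HCC4006. TEAD4 led in HCC827 DMSO, with 60.7% and 56.4%, beside 31.3% and 38.8% for TEAD1. The 2 resistant HCC827 libraries disagreed: TEAD1 led in library A with 55.7%, and TEAD4 led in library B with 68.1%. In HCC4006 the gap between the groups was larger than the spread within either, and no direction could be read for HCC827; these shares were not tested.

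**Figure D2:**
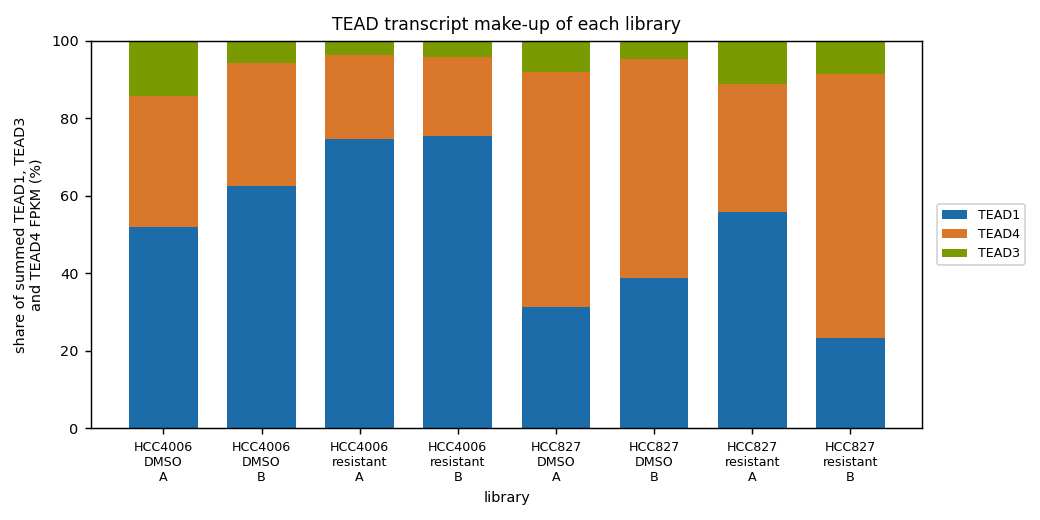
Share (%) of TEAD1, TEAD4 and TEAD3 in their summed FPKM, 1 bar per library. The TEAD1 share in HCC4006 is 52.0% and 62.4% in DMSO and 74.6% and 75.4% in resistant cells, and the resistant HCC827 bars differ from each other (55.7% and 23.3%).

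The remaining family member, TEAD2 (a TEAD factor best known from early development), was listed at 0 in both HCC827 DMSO libraries and at 53.2 and 66.2 FPKM in the resistant ones. It passed the test there (limma adjusted p = 0.00126), a call that rests on values listed at 0. In HCC4006 it was present throughout, at 71.9 and 40.3 FPKM in DMSO and 36.4 and 49.2 in resistant cells. A value of 0 in these files can be a failed estimate, so no fold is given for this gene in HCC827. Without either HCC827 DMSO library no row of the table was called in that line, so those fits say nothing of single genes.

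Between the libraries of a group, CTGF varied more than the other secreted target, CYR61, except in HCC827 DMSO. There CYR61 differed 3.59-fold and CTGF 1.46-fold. CTGF (hg19 chr6:132269315-132398533) stood at 16.2 and 64.5 FPKM in HCC4006 DMSO and at 169 and 62.2 in resistant HCC4006. It stood at 6.45 and 9.39 FPKM in HCC827 DMSO and at 6.33 and 25.8 in resistant HCC827. The groups overlapped in both lines. The log2 change was 1.64 (SE 0.90, 95% interval -0.93 to 4.21, limma adjusted p = 0.392) in HCC4006 and 0.69 (SE 0.76, interval -1.31 to 2.69, limma adjusted p = 0.664) in HCC827. In HCC4006 it ranged from 0.66 without library A of DMSO to 2.62 without library B of DMSO.

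CYR61 (hg19 chr1:86046443-86049645) was the most abundant of the 10 genes in all 4 groups. In HCC4006 its DMSO libraries were at 926 and 1308 FPKM and its resistant ones at 1579 and 1352. In HCC827 the controls were at 982 and 3526, and the resistant values, 1696 and 2524, lay between them. Its log2 change was 0.41 (SE 0.26, limma adjusted p = 0.456) in HCC4006 and 0.15 (SE 0.70, limma adjusted p = 0.934) in HCC827. CYR61 exceeded CTGF between 9.36-fold and 57.1-fold in the HCC4006 libraries and between 98.0-fold and 375-fold in the HCC827 libraries.

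A related CCN gene, NOV, which encodes another secreted member of the family, was called in HCC827. NOV stood at 3.80 and 4.22 FPKM in DMSO and at 32.0 and 38.5 in the resistant HCC827 libraries, a log2 rise of 2.98 (SE 0.36, limma adjusted p = 0.013). Both resistant libraries lay well above both controls. The call was lost when only rows above 0 in every library were tested (limma adjusted p = 0.0977). It was also lost with any HCC827 library left out. In HCC4006, NOV stood at 1.66 and 8.11 in DMSO and at 18.1 and 13.3 in resistant cells (limma adjusted p = 0.279). Of the 6 CCN genes, 4 could be tested in HCC4006 with 0 called (9.36% of rows), and 0 of these 4 had an unadjusted limma p below 0.05 (23.0% of rows). In HCC827, 3 could be tested with 1 called (6.8% of rows).

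The ankyrin-repeat target ANKRD1 (hg19 chr10:92671852-92681033) was lower in HCC827 than in HCC4006 in every library. It stood at 138 and 319 FPKM in HCC4006 DMSO and at 159 and 55.3 in resistant HCC4006, with overlapping groups. It stood at 4.03 and 18.7 FPKM in HCC827 DMSO and at 2.00 and 2.59 in resistant HCC827, both below both controls. The log2 change was -1.16 (SE 0.73, limma adjusted p = 0.447) in HCC4006 and -1.75 (SE 0.82, 95% interval -3.91 to 0.42, limma adjusted p = 0.363) in HCC827. Levels of the 2 lines come from tables that may have been scaled separately, and no test was made across them.

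Of the 10 genes, the feedback target AMOTL2 differed most in its change between the lines. AMOTL2 (hg19 chr3:134070693-134094321) stood at 1089 and 531 FPKM in HCC4006 DMSO and at 214 and 206 in resistant HCC4006. In HCC827 it stood at 212 and 226 in DMSO and at 202 and 190.1 in resistant cells. The HCC4006 controls were thus high and 2.05-fold apart, and the other 6 libraries lay between 190.1 and 226. The log2 change was -1.85 (SE 0.42, 95% interval -3.04 to -0.67, limma adjusted p = 0.0975) in HCC4006 and -0.16 (SE 0.27, interval -0.86 to 0.54, limma adjusted p = 0.786) in HCC827. AMOTL2 was called lower in HCC4006 when all 8 libraries shared 1 estimate of the spread (limma adjusted p = 0.0197). Its log2 change in HCC4006 was -1.34 without library A of DMSO and -2.37 without library B of DMSO. The call thus depends on the spread assumed for these controls.

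LATS2 stood at 53.3 and 57.6 FPKM in HCC4006 DMSO and at 40.5 and 42.4 in resistant HCC4006, both below both controls. In HCC827 it stood at 25.5 and 23.0 in DMSO and at 28.9 and 13.2 in resistant cells, with overlapping groups. The log2 change was -0.42 (SE 0.20, 95% interval -0.99 to 0.15, limma adjusted p = 0.338) in HCC4006 and -0.31 (SE 0.49, interval -1.59 to 0.98, limma adjusted p = 0.773) in HCC827. LATS2 had the tightest replicate libraries of the 5 targets in HCC4006 DMSO, at 1.08-fold.

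**Figure D3:**
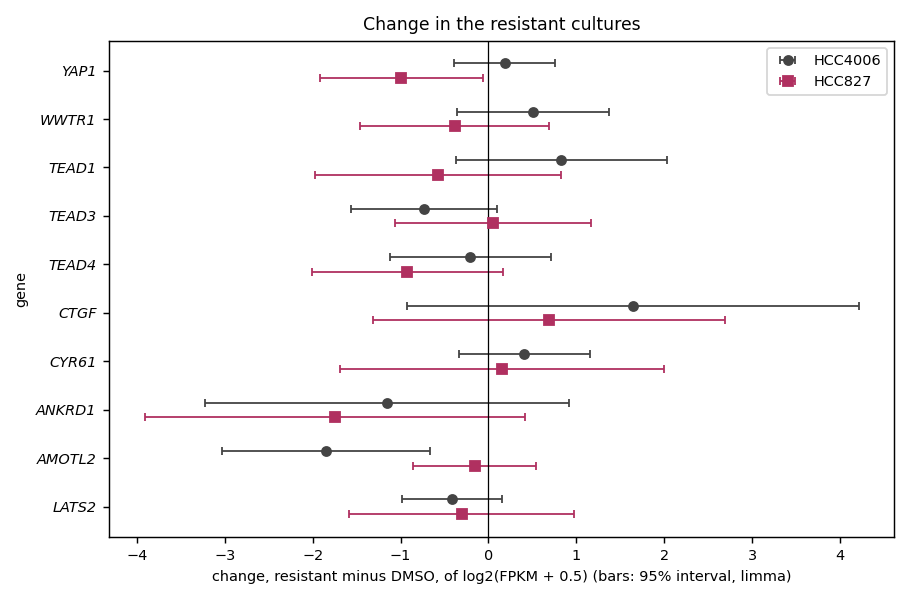
Change in log2(FPKM + 0.5), resistant minus DMSO, of the 10 genes in HCC4006 (circles) and HCC827 (squares), with 95% limma intervals. The intervals include 0 except for AMOTL2 in HCC4006 (-3.04 to -0.67) and YAP1 in HCC827 (-1.92 to -0.07), neither of which is adjusted for the number of rows tested.

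Whether a gene changed differently in the 2 lines was tested as the HCC827 change minus the HCC4006 change over all 8 libraries. None of the 10 genes was called, where 12.1% of 20685 rows were called (1.45% of rows above 0 in all 8 libraries). At an unadjusted limma p below 0.05 stood 2 of 10 genes, YAP1 and AMOTL2, beside 25.2% of rows. AMOTL2 gave 1.70 (SE 0.49, 95% interval 0.50 to 2.89, limma adjusted p = 0.0845), and YAP1 gave -1.18 (SE 0.39, interval -2.13 to -0.22, limma adjusted p = 0.125). TEAD1 gave -1.40 with a wide interval (SE 0.75, -3.22 to 0.41, limma adjusted p = 0.312). AMOTL2 was called without library A or library B of HCC4006 DMSO (limma adjusted p = 0.042 and 0.00352), and YAP1 without library A of resistant HCC827 (0.0242). Of the 10 differences, 7 were negative, and their median was -0.65, beside -0.04 for all rows.

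The spread between the 2 libraries of a group differed widely among the targets. LATS2 in both DMSO groups and in resistant HCC4006, and AMOTL2 in all groups but HCC4006 DMSO, differed by less than most rows of like level (1.04-fold to 1.11-fold, more than 9.60% to 18.2% of such rows). CTGF, CYR61 and ANKRD1 differed by more than most such rows in some groups only. In resistant HCC4006, CTGF differed 2.71-fold and ANKRD1 2.88-fold between libraries A and B, more than 99.4% and 99.5% of rows within a 2-fold range of their level. The other 8 genes differed at most 1.17-fold there. CYR61 differed 3.59-fold between the HCC827 DMSO libraries (more than 95.9% of rows of like level), and ANKRD1 differed 4.63-fold (93.5%). CTGF differed 3.98-fold between the HCC4006 DMSO libraries (92.8%) and 4.07-fold between the resistant HCC827 libraries (93.4%).

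The sign of these differences was shared by some targets. CTGF was higher in library B than in library A in HCC4006 DMSO, HCC827 DMSO and resistant HCC827, and lower in resistant HCC4006. CYR61, ANKRD1 and WWTR1 had the same 4 signs, and 9.06% of 14642 rows above 0 in all 8 libraries did. Of the 20 genes of a published YAP and TAZ signature that were above 0 in all 8 libraries, which include CTGF, CYR61 and ANKRD1, F3 (tissue factor) and FJX1 (a secreted regulator of cadherin signalling) also had them. Of the other listed genes, NOV, THBS1 (the matricellular protein thrombospondin) and VGLL4 (a TEAD cofactor that opposes YAP) shared them. None of 12 Hippo kinases and partners did. Of 5 epithelial markers above 0 in all 8 libraries, 2 shared these signs, EPCAM and NKX2-1. CDH1 had the opposite sign in all 4 groups. Some of the shared signs came from small differences. In resistant HCC4006 the log2 difference was -0.04 for WWTR1, beside -1.43 for CTGF. That of NKX2-1 in HCC4006 DMSO was 0.03, and that of VGLL4 in resistant HCC827 was 0.08. The letters in the tables are not tied to the labels' replicate numbers, and what differed between libraries A and B was not recorded in the labels.

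**Figure D4:**
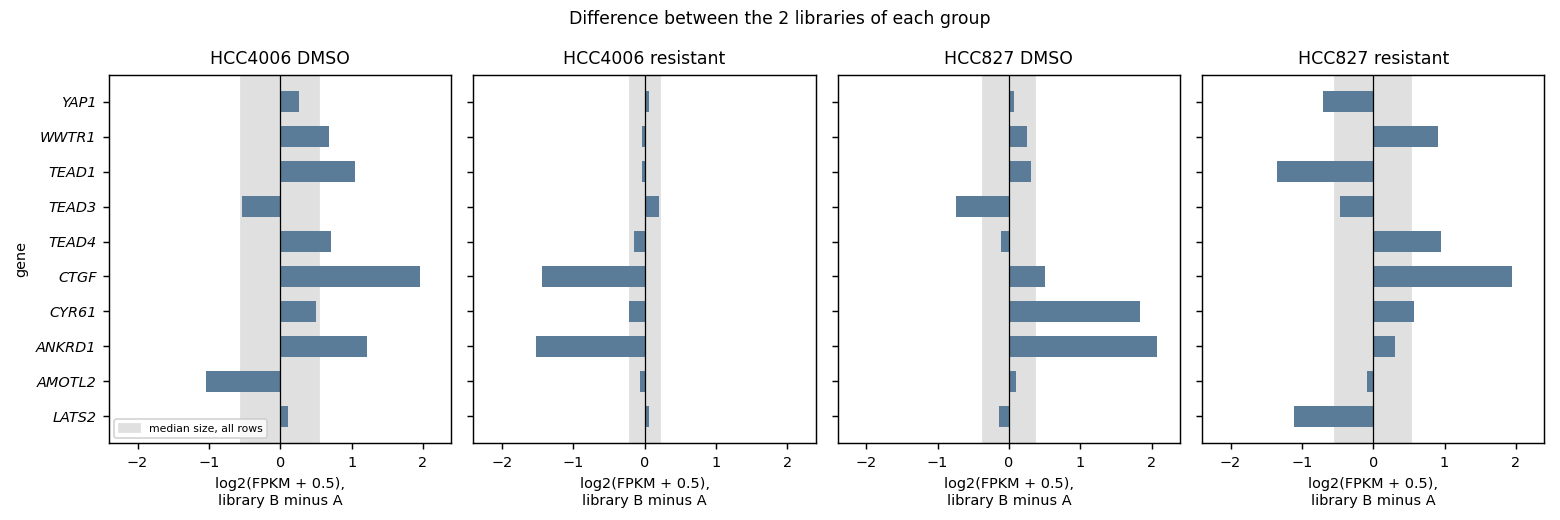
Difference in log2(FPKM + 0.5), library B minus library A, of the 10 genes in each of the 4 groups; the grey band is the median size of this difference over all rows above 0 in all 8 libraries (0.54, 0.21, 0.36 and 0.54 from left to right). In resistant HCC4006, CTGF and ANKRD1 extend far below the band while YAP1, WWTR1 and TEAD1 lie within it.

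By mean FPKM, CYR61 came first of the 10 genes in all 4 groups, at 1117 ± 270.1 FPKM (SD, n = 2) in DMSO and 1465 ± 160.2 in the resistant culture for HCC4006, and at 2254 ± 1799 and 2110.1 ± 585 for HCC827. In HCC4006 DMSO, AMOTL2 came second with values overlapping those of CYR61, and YAP1, WWTR1, TEAD1, ANKRD1 and TEAD4 followed, each overlapping the next. LATS2, TEAD3 and CTGF came last there, and TEAD3 and CTGF overlapped. In resistant HCC4006, WWTR1, TEAD1 and YAP1 came next to CYR61 with values that did not overlap, and CTGF and ANKRD1, which overlapped, stood above LATS2 and TEAD3. In both HCC827 groups WWTR1 and YAP1 followed CYR61 with overlapping values. ANKRD1 and CTGF held the last places there, overlapping in DMSO and separate in resistant cells, where CTGF stood at 16.0 ± 13.7 and ANKRD1 at 2.30 ± 0.42 FPKM (SD, n = 2).

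The wider pathway was described from lists of 70 genes in all. Of the 13 Hippo kinases and partners, 0 were called in HCC4006 (9.36% of rows), 2 had an unadjusted limma p below 0.05 (23.0% of rows), and 8 had a negative change. In HCC827, 1 of 13 was called (6.8% of rows), and the other 12 had a negative change. Their median change was -0.29 there, beside -0.04 for all rows. The called gene, STK4 (the kinase MST1, in a row shared with RP1-211D12.3), was listed at 0 in both HCC827 DMSO libraries and at 141 and 42.0 FPKM in the resistant ones, and was called (limma adjusted p = 0.00571).

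Among 14 upstream regulators, AMOTL2 included, 12 could be tested in each line. In HCC4006, 1 of 12 was called (9.36% of all rows), 7 had a positive and 5 a negative change, and 4 had an unadjusted limma p below 0.05 (23.0% of rows). In HCC827, 2 of 12 were called (6.8% of rows), 9 had a negative change, and the median change was -0.90 beside -0.04 for all rows. An unadjusted limma p below 0.05 was held by 6 of the 12 (18.2% of rows), among them PTPN14 and RASSF1, which were higher in resistant cells. PTPN14, a phosphatase that binds YAP and is also a signature gene, was listed at 0 in both DMSO libraries of both lines. It stood at 164 and 178 FPKM in resistant HCC4006 and at 24.2 and 6.0 in resistant HCC827, and was called in both (limma adjusted p = 0.00053 and 0.048). Its row also carries the name RP11-176D17.3. RASSF1, a scaffold of the MST kinases, was listed at 0 in both HCC827 DMSO libraries and at 31.4 and 78.5 FPKM in the resistant ones (limma adjusted p = 0.0047). These are calls on rows listed at 0 in controls, as for STK4. Of 4 other TEAD cofactors, VGLL2 was called lower in HCC4006, at 9.36 and 7.64 FPKM in DMSO and listed at 0 in both resistant libraries (limma adjusted p = 0.0107). It was lost without either resistant library (0.072 and 0.0731).

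The published 22-gene signature of YAP and TAZ activity gave no common direction. In HCC4006, 13 genes had a positive and 9 a negative change, with a median of 0.24 beside -0.01 for all rows. In HCC827, 6 of 21 tested genes had a positive and 15 a negative change, with a median of -0.18 beside -0.04. PTPN14, listed at 0 in the DMSO libraries of both lines, was the single signature gene called in each line. This was 1 of 22 in HCC4006 (9.36% of rows) and 1 of 21 in HCC827 (6.8%). An unadjusted limma p below 0.05 was held by 7 signature genes in HCC4006 (23.0% of rows) and by 3 in HCC827 (18.2%). Of 10 other genes often used as readouts, 1 was called in HCC4006 (9.36% of rows) and 0 of 8 tested in HCC827 (6.8%). In HCC827, 7 of these 8 had a negative change with a median of -1.65, beside -0.04 for all rows, and 3 had an unadjusted limma p below 0.05 (18.2% of rows). The called gene, DLC1, rose in resistant HCC4006 from 6.48 and 8.72 to 50.4 and 35.2 FPKM, a log2 change of 2.41 (SE 0.32, limma adjusted p = 0.0288). The DLC1 call was lost among rows above 0 only (0.0895), after quantile normalization (0.0573), with the libraries blocked by letter (0.0674) and without any 1 library (0.0731 to 0.288). THBS1 had the highest change of these 10 in HCC4006 without being called, at 162 and 1676 FPKM in DMSO and 3379 and 2899 in resistant cells, and its DMSO libraries differed by more than its groups did on the log2 scale.

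**Figure D5:**
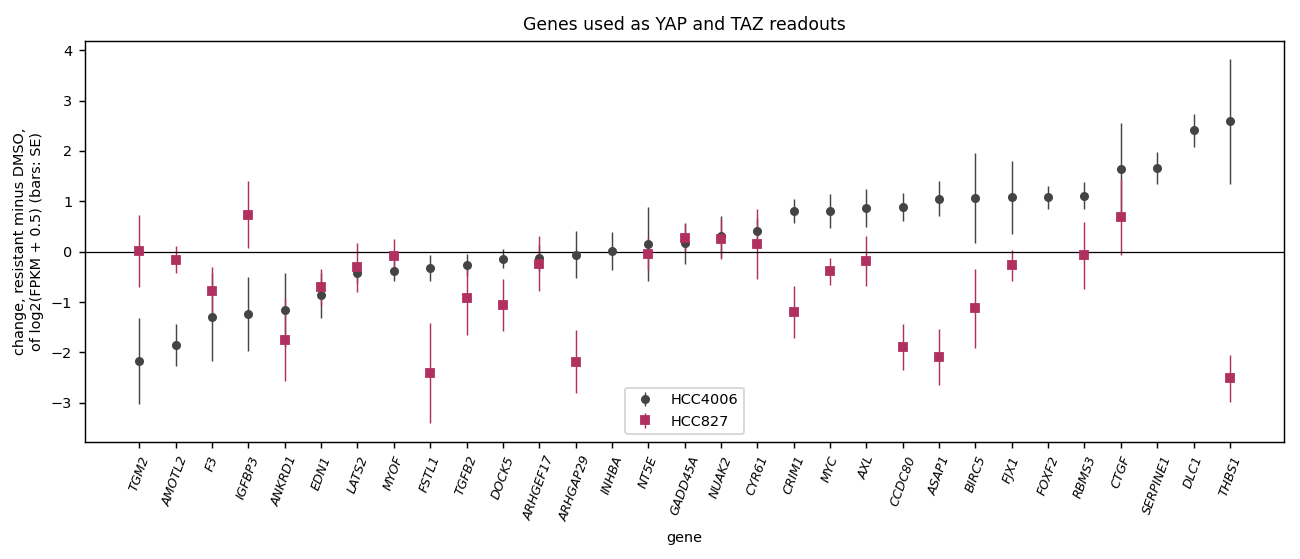
Change in log2(FPKM + 0.5), resistant minus DMSO, with SE, of signature and readout genes above 0 in all libraries of the line, ordered by the HCC4006 change; circles are HCC4006 and squares HCC827. DLC1 (2.41) is the called gene among those drawn, and CTGF and THBS1 carry wide errors.

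The genes most like 3 of the members were found by the root mean square difference of their line-centred log2 values over the 8 libraries, among 13800 or 13801 single-symbol rows above 0 in all of them. YAP1 was closest to FYTTD1 (0.08), TGFBRAP1 (0.09) and WDR82P1 (0.09). CYR61 was closest to RP3-476K8.4 (0.14), SNX24 (0.14) and LOXL1 (0.20). For CTGF the nearest rows, AL121893.1 (0.34), RP11-305M3.5 (0.36) and AC010095.6 (0.39), were less alike. All these rows share the same 8 libraries, so library effects enter the likeness.

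Rows above 0 numbered 17406 to 19333 per library, and the 10 highest rows took 15.6% of the summed FPKM in library A of HCC4006 DMSO and 5.30% to 10.3% elsewhere. The summed FPKM of 7 epithelial markers found of 8 was 9506 and 15844 in HCC4006 DMSO and 1802 and 1629 in resistant HCC4006, where CDH1, EPCAM, KRT19 and NKX2-1 were called lower, NAPSA was listed at 0 in resistant cells and SFTPB was listed at 0 throughout. In HCC827 this sum was 16869 and 15685 in DMSO and 11502 and 20216 in resistant cells, with none of the 7 called lower. The part of the epithelial marker fall in the HCC4006 values of the 10 genes was not tested. The summed FPKM of the immune list lay between 264 and 1126, nearly all of it CD68, a lysosomal protein, which stood at 264 to 1122. The leukocyte markers PTPRC, CD3D, CD3E and MS4A1 were listed at 0 in all 8 libraries, LYZ was above 0 in HCC4006 DMSO (3.90 and 2.35) and CD14 in 3 libraries at up to 2.32. Also at 0 in all 8 were the fibroblast markers COL3A1 and FAP. The summed FPKM of 5 endothelial markers found of 6 lay between 0 and 4.08, and that of 7 fibroblast markers, mostly COL1A1, between 13.4 and 122. Of the fibroblast markers, PDGFRB was called higher in resistant HCC4006, at 2.57 and 0.76 FPKM in DMSO and 21.9 and 26.2 in resistant cells (limma adjusted p = 0.0385, and 0.0793 among rows above 0), and it was listed at 0 in all HCC827 libraries. In bulk RNA, fewer cells with a transcript and less transcript per cell cannot be told apart.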

How the data were processed

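Polyadenylated RNA of 8 libraries (2 lines, DMSO and resistant, 2 libraries a group) was used as the gene-level FPKM that the authors deposited, in 2 tables of 48405 rows. TopHat 1.4.1, Cufflinks 1.3.0, Cuffdiff and build hg19 are named in the submitters' processing notes. The annotation is not given in the sources used here, nor is the depth, so no counting error can be given. The kit does not mark strand, so overlapping genes and antisense partners cannot be told apart.

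Values were tested as log2(FPKM + 0.5) with limma 3.58.1 (R 4.3.3; lmFit, eBayes with trend), keeping rows whose FPKM averaged at least 0.5, with Benjamini-Hochberg adjustment over all rows and a threshold of 0.05. The fit was also run on simulated data, and the outcome is not given here. Fold changes on this scale understate low genes. Each line was fitted on its 4 libraries, and the difference between lines on all 8. The 10 genes and 13 lists were chosen with earlier results of these data known. The text names the 10 genes, TEAD2, every listed pathway gene called in a line and, for YAP1, CTGF and CYR61, the 3 most alike rows. Marker genes are named where called or at 0, and EPCAM, NKX2-1 and CDH1 also for the signs of their library differences. These, F3, FJX1, THBS1 and VGLL4 are outside this rule and were named after their values were seen. Alternatives were the pseudocount, the filter, quantile normalization, summed rows, a prior without trend, a block by letter, all 8 libraries and leaving out each library. Of the listed markers, 1 is not reported here.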

Additional observations from a re-analysis of the deposited data

Results flagged for a closer look

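For 9 of the 67 pathway genes tested, the contrast between lines (HCC827 change less HCC4006 change) passed the limma test over all rows, where 12.1% of rows did. NF2, ASAP1 and CCDC80 are named here after their values were seen, since they were not called in either line. No member of the 10 genes is among the 9.

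In 6 of the 9, some libraries were listed at 0. TEAD2 (limma adjusted p = 0.00027), STK4 (0.00167) and RASSF1 (0.00171) were at 0 in HCC827 DMSO alone. VGLL2 (limma adjusted p = 0.00267) was above 0 in HCC4006 DMSO alone. For these 4 genes, fits without each of the 8 libraries in turn cannot test whether a 0 is a failed estimate. Leaving out a library at 0 leaves another at 0 in its group, with the same group value. PTPN14 (0.0447) was at 0 in the DMSO libraries of both lines, and its call was kept in 2 of 8 such fits, those without library A or B of resistant HCC827. DLC1 (0.0309) was listed at 0 in all HCC827 libraries, and its call was kept in 4 of 8 fits and lost without library A of resistant HCC4006, library A or B of HCC827 DMSO or library B of resistant HCC827.

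The other 3 were above 0 in all 8 libraries and lost their calls when only such rows were tested. NF2, the tumour suppressor merlin, stood at 115 and 188 FPKM in HCC4006 DMSO, 233 and 202 in resistant HCC4006, 465 and 458 in HCC827 DMSO and 122 and 176 in resistant HCC827. The difference was -2.21 (SE 0.44, limma adjusted p = 0.0247, 0.0669 among rows above 0), called in 3 of 8 fits and lost without any library but the HCC4006 DMSO pair and library B of resistant HCC827. ASAP1, an Arf GTPase-activating protein of the signature, gave -3.14 (SE 0.73, limma adjusted p = 0.0435, 0.0706 among rows above 0), called in 1 of 8 fits, that without library A of resistant HCC827. CCDC80, a secreted protein of the signature, gave -2.78 (SE 0.57, limma adjusted p = 0.0267, 0.0604 among rows above 0), called in 2 of 8 fits, those without library A or B of resistant HCC827.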

How the results depend on the processing

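The count of called members stayed at 0 in HCC827 under every alternative run. In HCC4006 it was 1 with all 8 libraries in 1 fit (AMOTL2) and 0 to 3 with a library left out; in the difference between lines it was 0 to 1 with a library left out and 0 otherwise. A fit that leaves 1 library in a group assumes that it varies like the others. Leaving out a library turned the sign of some uncalled changes, whose log2 values then ranged from -0.57 to 0.15 (TEAD4) and -0.76 to 0.069 (TEAD2) in HCC4006. In HCC827 they ranged from -0.84 to 0.067 (WWTR1), -1.25 to 0.10 (TEAD1), -0.32 to 0.42 (TEAD3), -0.28 to 1.66 (CTGF), -0.77 to 1.08 (CYR61) and -0.86 to 0.25 (LATS2). For the difference between lines they ranged from -1.93 to 0.028 (CTGF), -1.18 to 0.67 (CYR61), -1.63 to 0.45 (ANKRD1) and -0.44 to 0.66 (LATS2). Quantile normalization moved the median change of all rows by -0.18 in HCC4006 and -0.20 in HCC827, and gave -0.21 for TEAD3 in HCC827, a sign change of about that size. The cause of the other sign changes was not tested. Other uncalled changes moved by over 1.5 times without changing sign, among them ANKRD1 (-1.92 to -0.40 in HCC4006, -2.79 to -0.70 in HCC827), CYR61 in HCC4006 (0.16 to 0.66), YAP1 (0.05 to 0.32 in HCC4006, -1.35 to -0.64 in HCC827) and TEAD4 in HCC827 (-1.40 to -0.45).

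Fitting only rows above 0 gave 88 calls over all rows in place of 1860 in HCC4006, 19 in place of 1314 in HCC827 and 212 in place of 2501 for the difference between lines. Without library B of HCC4006 DMSO these were 3565 in HCC4006 and 3857 for the difference, and 1666 for the difference without library B of resistant HCC4006. Without either HCC827 DMSO library none was called in HCC827. With the column letter as a replicate block, 0 members were called in any fit, and 1400, 1485 and 1687 rows were called in HCC4006, in HCC827 and for the difference. No label ties the letters to a shared day or batch, and the correlation across rows of the library differences in DMSO and resistant cells was -0.08 in HCC4006 and 0.21 in HCC827. Among the other genes named, the block ended the calls of DLC1 in HCC4006 and of PTPN14, NF2, ASAP1, CCDC80 and DLC1 for the difference. The number of libraries, 2 a group, limits the precision, and the depth is unknown.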
